A study of Saccharomyces cerevisiae with 12 samples.

Results

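The kinetochore is the protein assembly that ties a chromosome's centromere to spindle microtubules. The 38 genes described here encode its budding yeast subunits and the chromosomal passenger proteins. They were taken by ORF name from the subcomplexes: 4 of the NDC80 complex, 4 of MIND, 10 of DASH, 4 of COMA, 5 further genes of the CTF19 network, 4 of CBF3, 2 of centromeric chromatin, CBF1, and 4 of the passenger group. The choice used no measured value, although results of these data were already known when it was made. Of the 38, 37 had a row among the 6174 ORFs of the table, and HSK3 of DASH had none.

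RNA of Saccharomyces cerevisiae was compared as log2 ratios on 12 2-colour arrays, with a pair of dye-swapped arrays (Exp 1 and Exp 2) for each of 6 comparisons. All strains derive from the MATa strain CML128, which carries ura3-52, his4, the double allele of leu2-3 and leu2-112, and trp1, and all cells grew exponentially in rich YPD medium at 30 °C. The strains were the wild type, Δhcm1 (MJRC05, hcm1::natMX4), HCM1HA (GRB2405, the gene tagged at its own promoter as HCM1-3HA::natMX4) and tetHCM1HA (MJRC07, derived from GRB2405, with tetO7-HCM1-3HA::kanMX4, which doxycycline represses). HCM1 differed by design in 3 comparisons: Δhcm1 over wild type, tetHCM1HA over HCM1HA, and tetHCM1HA without over with 10 h of doxycycline. The controls were HCM1HA over wild type, and HCM1HA with 4 h or with 10 h of doxycycline over HCM1HA without it. HCM1HA and tetHCM1HA both carry the tag, so the tet comparisons contrast tagged strains, and each altered strain is named as a single line in the labels. The study describes its array pairs as dye swaps of the same RNA, so a comparison counts here as 1 RNA pair. Every SD below is the spread of 2 arrays (n = 2) and may be wholly technical.

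Hcm1 is a forkhead transcription factor of S phase, known for activating genes of chromosome segregation and spindle assembly. At the yeast centromere, CBF3 and Cbf1 bind DNA around a nucleosome that holds Cse4, the histone H3 variant. Mif2 and the COMA complex bridge this chromatin to MIND, MIND recruits the NDC80 complex, and NDC80 with the ring-forming DASH complex holds the microtubule. The passenger kinase Ipl1, with Sli15 and Bir1, releases wrong attachments.

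HCM1 itself stood at -3.55 and -3.18 (log2) in the deletion, at 5.31 and 5.02 with the tet promoter over its own promoter, and at 5.79 and 5.51 without over with doxycycline. It passed the test in the tet comparisons (limma, Benjamini-Hochberg adjusted p = 0.0332 and 0.0181) and missed it in the deletion (adjusted p = 0.737). Each array was centred on its median, which lay between -0.05 and 0.09 as deposited. The 2 columns of HCM1HA over wild type mirror each other (r = -0.999), so that comparison rests on 1 array, and its direction is not settled. Its values below are those of the first column with the direction its label gives; turned, each would have the opposite sign. Between 2520 and 6174 ORFs had a value on an array.

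Fewer members than ORFs in general had a value. In the deletion 27 members were measured on both arrays, which is 73.0% of those in the table, against 83.6% of all ORFs. The corresponding shares were 51.4% against 64.1% for tet over own promoter, 62.2% against 69.8% without over with doxycycline, 29.7% against 40.4% after 4 h and 21.6% against 37.4% after 10 h of doxycycline. On all 12 arrays 7 members had a value, and 6 members had a value on the second array of the deletion alone: CSE4, DAD1, DAD3, CEP3, CBF2 and CTF13. Centromeric chromatin and CBF3 are therefore hardly described by these data, with MIF2 read on 2 arrays and SKP1 as the only gene of CBF3 read on more than 1. Why values are missing was not tested.

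**Figure D1:**
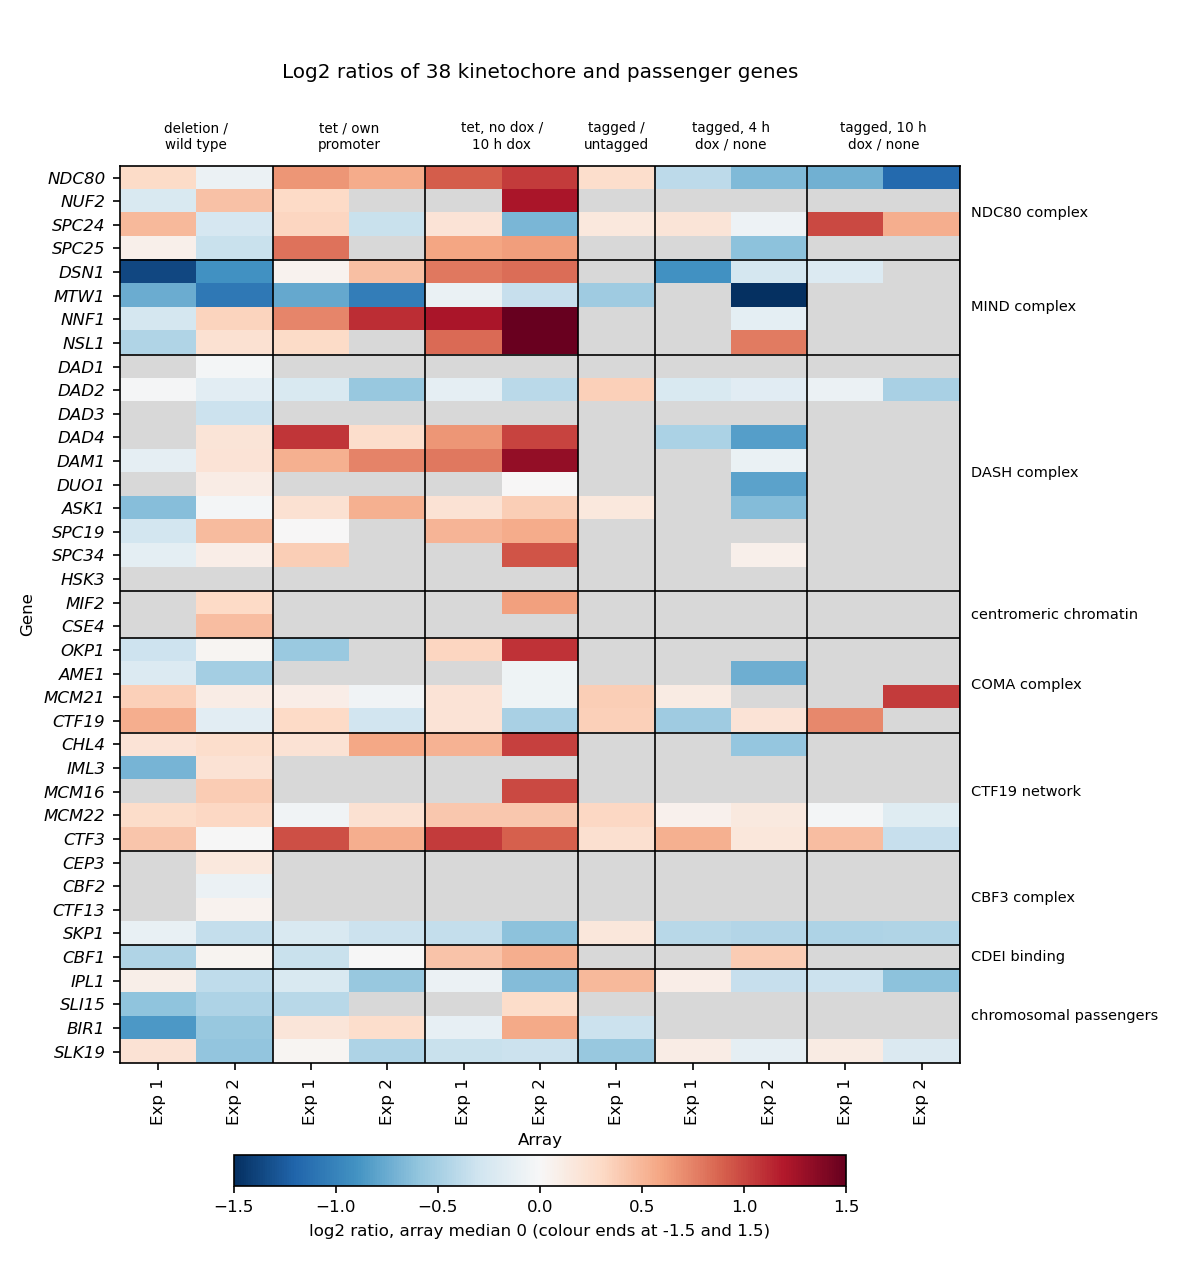
Log2 ratio of each of the 38 genes (rows, by subcomplex) on the 11 arrays used (columns, by comparison), coloured from blue (lower) to red (higher) with grey for no value. NNF1, NSL1, DAM1, NDC80 and CTF3 are red without over with doxycycline, MTW1 is blue on all 8 arrays that read it, and CSE4 and most of CBF3 have 1 value each.

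In the strain without Hcm1, kinetochore genes as a whole stood near the other genes: the median log2 ratio of the 27 measured members was -0.11, and that of all 5161 ORFs was -0.01. The members' median changed sign to 0.03 on Exp 2 alone, which read 37 members, and was 0.10 over the 7 members on all 12 arrays. Of the 27 members, 2 were at least 1.5-fold lower on both arrays (7.41%, against 5.54% of all ORFs), and none was 1.5-fold higher (0.213% of all ORFs). At 2-fold none was lower (1.53% of all ORFs) or higher (0.00%). Both low genes belong to MIND, the complex that links the inner to the outer kinetochore. Negative values on both arrays were seen for 8 members (29.6%, against 35.9% of all ORFs) and positive values for 3 (11.1%, against 29.3%). These shares do not set the list apart in the downward direction.

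DSN1 (YIR010W), which encodes the MIND subunit that carries an Ipl1 target site, stood at -1.37 and -0.91, a mean of -1.14 ± 0.32 (2.20-fold lower). It lies on chromosome IX, and in this strain 184 of the 187 measured genes of that chromosome were lower, with a median of -0.92 and quartiles of -1.15 and -0.67. All other chromosomes together had a median of 0.00. DSN1 was the 51st lowest of the 187, so its value lies inside the range of its chromosome. Its neighbours PRI1 (-1.16), STS1 (-0.88) and MSL1 (-0.72) were low as well. An effect of HCM1 on DSN1 and the shift of the chromosome cannot be told apart here.

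NDC80 (YIL144W), the gene of the microtubule-binding subunit after which its complex is named, also lies on chromosome IX but did not follow it. Its values were 0.28 and -0.09, a mean of 0.10 ± 0.26, and it was the 3rd highest of the 187 genes. The genes on either side were at -0.49 (PAN6) and -0.97 (SSL2). A value near 0 for NDC80 is thus the value of the rest of the genome, not of its surroundings. What sets it apart from its neighbours was not tested.

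**Figure D2:**
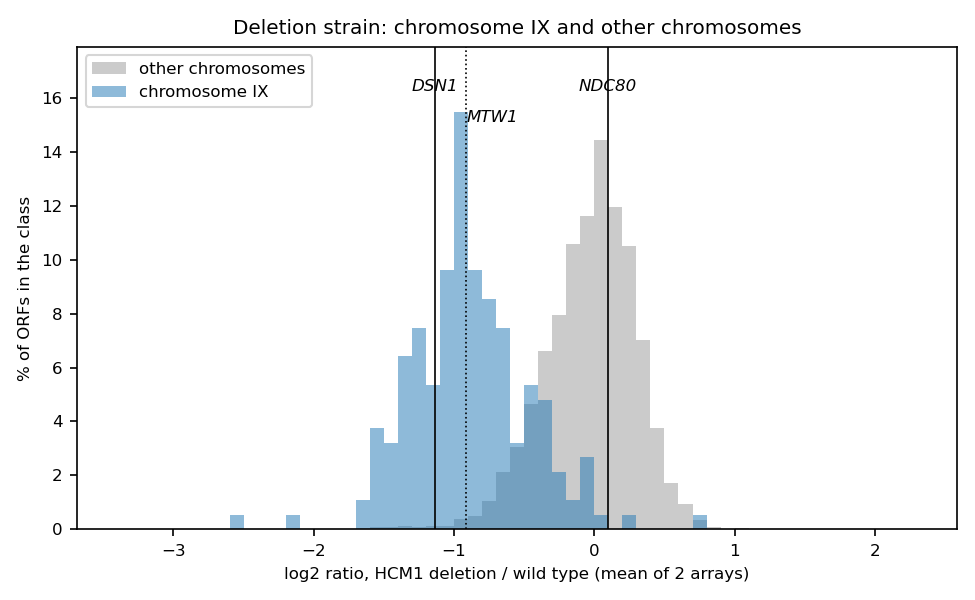
Histogram of the mean log2 ratio in the deletion strain over wild type (x axis) for ORFs of chromosome IX (blue) and of all other chromosomes (grey), as a percentage of each class (y axis), with vertical lines at 3 members. DSN1 at -1.14 falls within the chromosome IX values, NDC80 at 0.10 falls among the other chromosomes, and MTW1 at -0.91, a gene of chromosome I, lies in the lower tail of the grey distribution.

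MTW1 (YAL034W-A), which encodes a further MIND subunit and lies on chromosome I, stood at -0.75 and -1.08, a mean of -0.91 ± 0.23 (1.88-fold lower). Of its adjacent genes, FUN12 was at -0.61 and FUN19 at 0.34. The other MIND genes, NNF1 (0.04 ± 0.42) and NSL1 (-0.11 ± 0.48), had opposite signs on the 2 arrays. MIND as a group therefore had a median of -0.51 that rested on 2 of its 4 genes.

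Among the passenger genes, 2 of 4 were lower on both arrays, as were 35.9% of all ORFs. BIR1 (YJR089W), the yeast survivin, stood at -0.86 and -0.57, a mean of -0.71 ± 0.21, and fell just short of 1.5-fold on its second array. SLI15 (YBR156C), the INCENP that activates Ipl1, stood at -0.60 and -0.47 (mean -0.54 ± 0.10). IPL1 (YPL209C), the Aurora kinase gene, was at 0.09 and -0.38, and SLK19 (YOR195W), of the spindle midzone and kinetochore, at 0.22 and -0.59. All 4 means were negative, with a median of -0.36. Of all 5161 ORFs, 2628 had a negative mean, so these few genes do not set the group apart by direction.

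In the deletion the means of the NDC80 complex ran from -0.13 (SPC25, at 0.08 and -0.33) to 0.12 (SPC24, at 0.48 and -0.25). Every gene of the complex had opposite signs on the arrays, NUF2 at -0.22 and 0.44, so only the means lay close together. In DASH the 5 measured genes ran from -0.33 ± 0.44 (ASK1, at -0.64 and -0.03) to 0.10 (SPC19). COMA ran from -0.36 ± 0.21 (AME1, at -0.21 and -0.51) to 0.23 (MCM21). The CTF19 network genes CHL4 (0.20 and 0.26) and MCM22 (0.27 and 0.31) were slightly higher on both arrays. SKP1 (YDR328C), shared between CBF3 and the SCF ubiquitin ligase, was at -0.11 and -0.36, and CBF1 (YJR060W), which binds the first centromere element, at -0.45 and 0.04. Among genes with a value on the second array alone, the highest were CSE4 at 0.46, MCM16 at 0.38 and MIF2 at 0.30, and the lowest were DAD3 at -0.32, CBF2 at -0.09 and DAD1 at -0.03.

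Of the 14 members that could be tested in the deletion, 0 passed (limma, Benjamini-Hochberg adjusted p below 0.05; adjusted p = 1 for DSN1), and 1, DSN1, had an unadjusted p below 0.05. Over all genes 0 of 3820 passed (0.00%), 94 of them with an unadjusted p below 0.05. The residual of this test comes from the 3 control comparisons, so a true shift in a control widens it and makes passing harder. Of the measured members, 13 had no control comparison with all of its arrays. With each array counted as a replicate, DSN1 and MTW1 passed (2 of 27, against 3.82% of all ORFs). With the dye orientation as a block, BIR1 passed as well (3 of 22, against 20.0%).

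With HCM1 driven by the tet promoter, without doxycycline on either side, kinetochore genes stood on both sides of 0. The median of the 19 members measured on both arrays was 0.09, and that of all 3955 ORFs was -0.01. Over the 7 members on all 12 arrays the median was -0.01. Positive values on both arrays were seen for 9 members (47.4%, against 32.5% of all ORFs): NDC80, DSN1, NNF1, DAD4, DAM1, ASK1, CHL4, CTF3 and BIR1. Negative values on both were seen for 5 (26.3%, against 34.1%): MTW1, DAD2, SKP1, CBF1 and IPL1. At 1.5-fold on both arrays, 1 member was higher (5.26%, against 4.88% of all ORFs) and 1 was lower (5.26%, against 2.07%), and none was 2-fold higher (1.16% of all ORFs) or lower (0.556%).

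NNF1 (YJR112W) of MIND was the higher gene, at 0.73 and 1.11 (mean 0.92 ± 0.27, 1.89-fold). The lower gene was again MTW1, at -0.76 and -1.04 (mean -0.90 ± 0.19). The mean of MTW1 was thus -0.90 with raised HCM1 and -0.91 without HCM1. Its MIND partner DSN1 stood at 0.05 and 0.45 here. NSL1 had 1 value, 0.29.

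Just below the 1.5-fold line on 1 of the arrays were NDC80 (0.67 and 0.56, mean 0.61 ± 0.08), DAM1 (0.53 and 0.75, mean 0.64 ± 0.15) and CTF3 (0.97 and 0.55, mean 0.76 ± 0.29). DAM1 (YGR113W) encodes the DASH subunit that contacts the Ndc80 complex and is a main Ipl1 substrate. DAD4 (YDR320C-A), a very short DASH gene, was at 1.07 and 0.27 and so spread widely (mean 0.67 ± 0.57). ASK1 stood at 0.23 and 0.54, and DAD2 went the other way at -0.22 and -0.56. SPC25 had a value on the first array alone, 0.81.

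In the CTF19 network, CHL4 stood at 0.22 and 0.58 beside the CTF3 values above. In COMA, MCM21 stood at 0.10 and -0.05 and CTF19 at 0.30 and -0.29, and OKP1 had 1 value, -0.56. SKP1 was at -0.23 and -0.32, CBF1 at -0.34 and -0.0014, and IPL1 at -0.22 and -0.57. BIR1, low in the deletion, was at 0.18 and 0.27. SLI15 had 1 value, -0.42. By limma, 0 of 15 testable members passed after Benjamini-Hochberg adjustment, and 0 reached 0.05 without it. Over all genes 1 of 3488 passed (0.0287%), which was HCM1. With each array a replicate 2 members passed, MTW1 and NNF1 (2 of 19, against 6.47% of ORFs). With the dye orientation as a block the count was 8 of 19, against 21.7%.

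**Figure D3:**
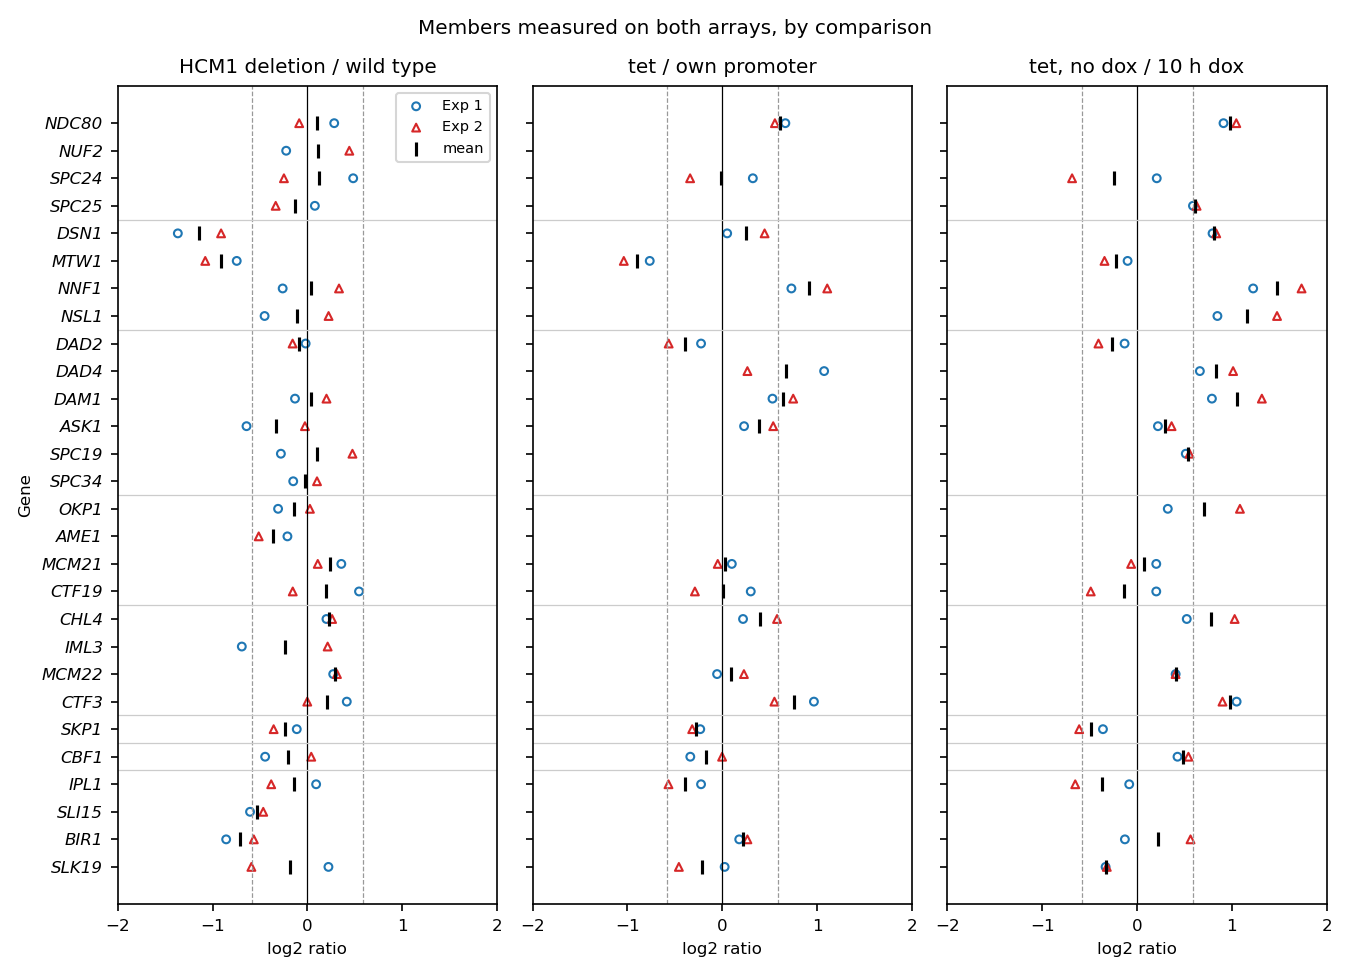
Log2 ratio (x axis) of each member measured on both arrays (y axis, by subcomplex) in the 3 comparisons with altered HCM1, with circles for Exp 1, triangles for Exp 2, bars for their mean and dashed lines at 1.5-fold. Most members scatter around 0 in the deletion, while NNF1, NSL1, DAM1, NDC80, CTF3, DAD4, DSN1 and SPC25 lie beyond the right-hand line in the comparison without over with doxycycline.

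The widest differences came when tetHCM1HA cells without doxycycline were set over the same strain after 10 h with it. The median of the 23 measured members was 0.48, against 0.00 for all 4307 ORFs. That direction depended on which members were read. The median was -0.24 over the 7 members on all 12 arrays, and -0.17 over the 8 members for which the 10 h doxycycline control could be added. With it added, 0 of these 8 were 1.5-fold higher on both arrays, although CTF3 kept a mean of 1.03. The share of all ORFs with the control added is not given here. Without that control, at least 1.5-fold higher on both arrays were 8 members (34.8%, against 8.34% of all ORFs): NDC80, SPC25, DSN1, NNF1, NSL1, DAD4, DAM1 and CTF3. None was 1.5-fold lower (8.24% of all ORFs). Of any size, 14 were higher on both arrays (60.9%, against 37.2%). The means of 16 members were positive and those of 7 negative, against 2149 and 2158 of all 4307 ORFs. In bulk RNA, fewer cells in the phase that makes these transcripts and less RNA per cell cannot be told apart.

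MIND genes stood highest, with a group median of 0.99. NNF1 was at 1.22 and 1.74, a mean of 1.48 ± 0.36 (2.79-fold), and was at least 2-fold higher on both arrays, as 3.20% of ORFs were. No member was 2-fold lower on both (2.16% of ORFs). NSL1 (YPL233W) was at 0.85 and 1.48 (mean 1.16 ± 0.44, 2.24-fold) and DSN1 at 0.80 and 0.84 (mean 0.82 ± 0.03). MTW1 alone in the complex was negative, at -0.10 and -0.34.

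In the NDC80 complex, NDC80 was at 0.91 and 1.05 (mean 0.98 ± 0.10, 1.97-fold) and SPC25 (YER018C), a globular-end subunit, at 0.59 and 0.63 (mean 0.61 ± 0.03). SPC25 was the member just inside the 1.5-fold line, and CHL4 (0.52 and 1.03) was just outside it. NUF2 (YOL069W), the partner of Ndc80 in microtubule binding, had 1 value, 1.22. SPC24 (YMR117C), which forms a dimer with Spc25, had opposite signs at 0.21 and -0.69.

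Among DASH genes, DAM1 was at 0.79 and 1.32 (mean 1.05 ± 0.37, 2.08-fold) and DAD4 at 0.66 and 1.01 (mean 0.84 ± 0.25). SPC19 stood at 0.51 and 0.55 and ASK1 at 0.22 and 0.36, both positive but smaller. SPC34 had a single value, 0.95. DAD2 was again slightly negative, at -0.13 and -0.41, and DUO1, read on 1 array, was at 0.01.

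In the CTF19 network all 3 genes measured on both arrays were positive: CTF3 at 1.05 and 0.90 (mean 0.98 ± 0.11), CHL4 at 0.52 and 1.03 (mean 0.78 ± 0.36) and MCM22 at 0.41 and 0.41. Both CTF3 (YLR381W) and CHL4 (YDR254W) encode proteins that load centromeric cohesin through the Ctf19 complex. In COMA only OKP1 (YGR179C), an essential subunit, was above 0 on both arrays, at 0.32 and 1.09, whereas MCM21 (0.20 and -0.06) and CTF19 (0.20 and -0.49) straddled it. CBF1 stood at 0.43 and 0.54.

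The 3 passenger genes measured on both arrays had a median of -0.33. IPL1 was at -0.08 and -0.65, SLK19 at -0.33 and -0.32 and BIR1 at -0.13 and 0.56. SLI15 had a value on the second array alone, 0.27. SKP1 stood at -0.36 and -0.61 (mean -0.49 ± 0.18).

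None of the 15 testable members passed the limma test in this comparison. CTF3 alone had an unadjusted p below 0.05 (limma, Benjamini-Hochberg adjusted p = 0.393). NDC80 had an adjusted p of 0.602 and DSN1 of 0.627, while NNF1, NSL1, DAM1 and SPC25 had no control comparison with all of its arrays and could not be tested. Over all genes 1 of 3633 passed (0.0275%), which was HCM1. With each array a replicate, 10 of 23 members passed, SKP1 as the lower gene among them (against 23.6% of ORFs), and with the dye orientation as a block 15 of 23 (against 47.8%). Those fits measure the spread between arrays, not between cultures.

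Because one side of that comparison had doxycycline, the tagged strain with and without the drug is the control for it. NDC80 was lower there too: -0.39 and -0.66 after 4 h, and -0.72 and -1.16 after 10 h (mean -0.94 ± 0.31). HCM1, at its own promoter in this strain, was not level there: it stood at 1.37 and 0.68 after 10 h (mean 1.02 ± 0.49, 2.03-fold higher) and at 0.50 on the 1 array that read it after 4 h. The 10 h value did not pass in limma (Benjamini-Hochberg adjusted p = 0.0872) and passed with each array a replicate (adjusted p = 0.00336). NDC80 was the only 1 of 8 measured members at least 1.5-fold lower after 10 h (12.5%, against 12.2% of all ORFs), and none was 1.5-fold higher (10.3%). At 2-fold none was lower (6.66%) or higher (2.85%). With over without doxycycline, NDC80 thus stood at -0.98 in the tet strain and -0.94 in the tagged strain, a difference of -0.04 (limma, Benjamini-Hochberg adjusted p = 0.976). The value of NDC80 in the tet strain was as large in the tagged strain.

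CTF3 differed from NDC80 in this respect. In the tagged strain it was at 0.53 and 0.17 after 4 h and at 0.46 and -0.34 after 10 h (mean 0.06 ± 0.57), against -0.98 with over without doxycycline in the tet strain. The difference of -1.03 did not pass (limma, Benjamini-Hochberg adjusted p = 0.275, unadjusted p = 0.0618). Among the 8 members with both values, 0 differences passed (146 of 2156 ORFs did, 6.77%) and 0 had an unadjusted p below 0.05.

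For the rest of the 8 higher members the 10 h control gave at most 1 value, which was -0.21 for DSN1. After 4 h of doxycycline DAD4 was at -0.48 and -0.82, DSN1 at -0.91 and -0.26, and SPC25 at -0.62 on its 1 array. NNF1 (-0.14) and DAM1 (-0.10), each on the second array, were near 0, and NSL1 (0.78) was higher with the drug. For most of these genes a share of doxycycline in the tet comparison therefore was not tested. NDC80, DSN1, NNF1, DAD4, DAM1 and CTF3 also stood above 0 on both arrays of tet over own promoter, as 32.5% of all ORFs did. SPC25 and NSL1 had a value on 1 array there. The genes were picked as higher without over with doxycycline, and both comparisons share the untreated tet strain. Their agreement is thus partly fixed in advance, and the share of unselected ORFs is no fitting background. No sample of tet over own promoter had doxycycline, but what part the drug had was not tested.

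After 4 h of doxycycline the 11 measured members had a median of -0.16, against 0.04 for all 2495 ORFs. After 10 h the 8 measured members had a median of -0.20, against 0.01 for 2312 ORFs. At 4 h none was 1.5-fold lower (5.13% of all ORFs) or higher (5.09%). Of any size, 5 of the 11 were lower on both arrays at 4 h (45.5%, against 29.5% of all ORFs), namely NDC80, DSN1, DAD2, DAD4 and SKP1, and 2 were higher (18.2%, against 36.4%). At 10 h 5 of 8 were lower (62.5%, against 35.9%), namely NDC80, DAD2, MCM22, SKP1 and IPL1, and 1 was higher (12.5%, against 35.8%). SPC24 stood at 0.99 and 0.55 after 10 h, opposite to its complex partner NDC80. No member passed in a control comparison (limma, Benjamini-Hochberg adjusted p below 0.05): 0 of 9 in HCM1HA over wild type and 0 of 9 after 4 h, each with 0 at an unadjusted p below 0.05, and 0 of 8 after 10 h, with 2. Over all genes, 0.00%, 0.00% and 8.86% of those tested passed. With each array a replicate, 0 of 11 members passed after 4 h (against 15.5% of ORFs) and 3 of 8 after 10 h (NDC80, SPC24 and SKP1, against 37.5%). With the dye orientation as a block, 5 of 11 passed after 4 h (against 40.6%) and 4 of 8 after 10 h (against 58.2%). In HCM1HA over wild type the 13 members ran from -0.57 (SLK19) to 0.49 (IPL1) and none reached 1.5-fold, as 4.40% of ORFs did downwards and 1.57% upwards.

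**Figure D4:**
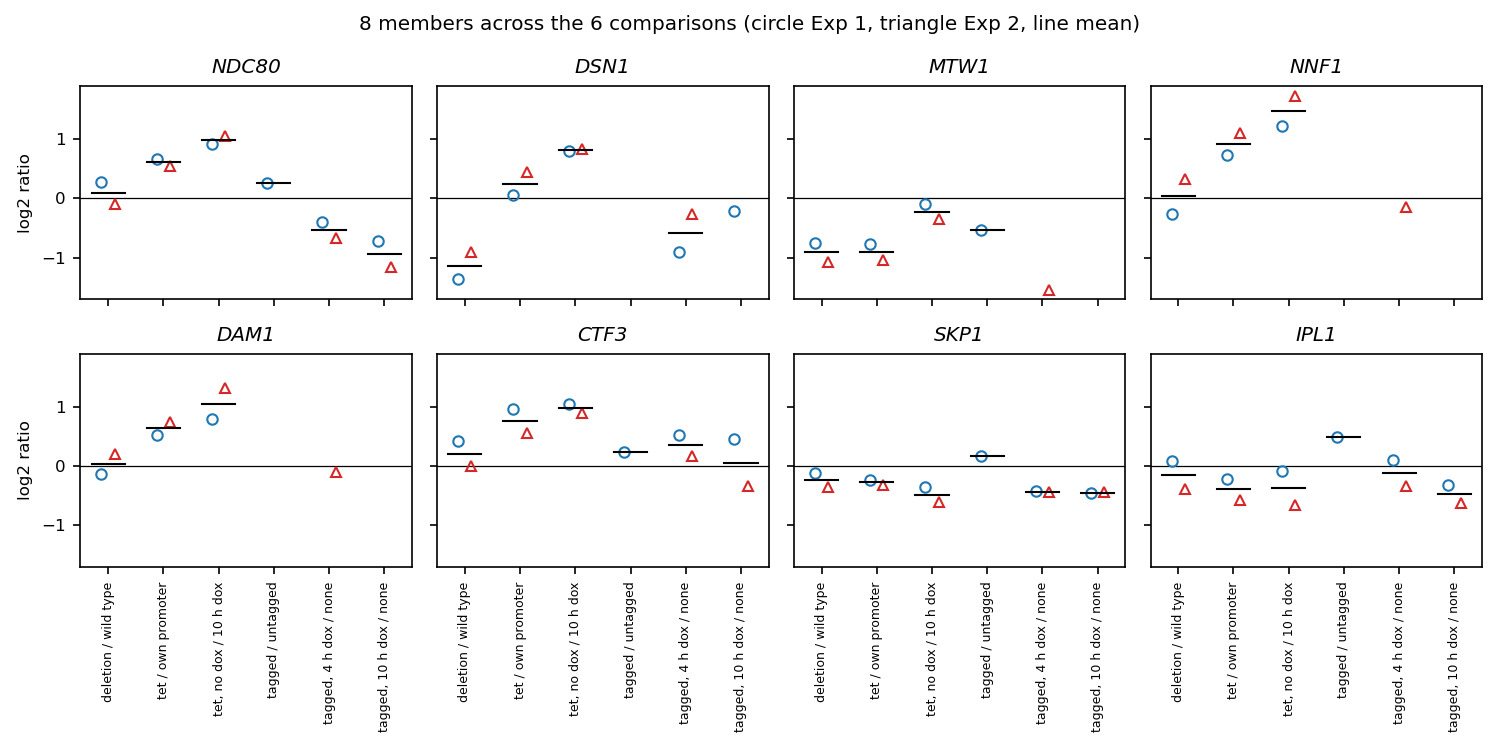
Log2 ratio (y axis) of 8 members in the 6 comparisons (x axis), with a circle for Exp 1, a triangle for Exp 2 and a line for the mean. NDC80 is above 0 in both tet comparisons and below 0 in both doxycycline controls, MTW1 is below 0 on every array with a value, and SKP1 lies between -0.61 and 0.17.

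MTW1, SKP1 and DAD2 were negative on nearly all arrays. MTW1 was negative on 8 of 8 arrays, down to -1.54 on the 1 array that read it after 4 h of doxycycline, with -0.53 in HCM1HA over wild type (0.53 if that comparison is turned, which would leave 7 of 8). SKP1 was negative on 10 of 11, at -0.42 and -0.44 after 4 h and -0.46 and -0.45 after 10 h. DAD2 was also negative on 10 of 11 arrays, from -0.56 to 0.36. The 1 positive value of each, 0.17 for SKP1 and 0.36 for DAD2, is that of HCM1HA over wild type, and with that comparison turned both would be negative on 11 of 11. The means of these 3 genes were negative both where HCM1 was removed and where it was raised, although DAD2 in the deletion was near 0 (-0.09). That was not particular to them. In the deletion, tet over own promoter and without over with doxycycline, IPL1 had means of -0.14, -0.40 and -0.37. SLK19 had means of -0.18, -0.22 and -0.33. AME1 was negative on the 4 arrays that read it. The share of all ORFs that were negative as often is not given here. Several comparisons share a strain (HCM1HA, tetHCM1HA or the wild type), and the labels do not say whether they share its RNA. The arrays can therefore not be taken as independent.

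Dye orientation bears on single values of some members. With the median ORF set to 0 in each comparison, Exp 1 lay above Exp 2 in all 5 comparisons with a dye pair for SPC24, CTF3 and IPL1, that is for 3 of the 8 members with all 5 values (37.5%, against 33.9% of 1837 ORFs). Exp 1 lay below Exp 2 in all 5 for 0 of the 8 (14.2% of ORFs). Both counts are of few genes, and the first is near the background. The median gap was 0.62 for SPC24, 0.38 for CTF3 and 0.37 for IPL1. NNF1 (-0.53) and DAM1 (-0.44) had gaps the other way in all 3 comparisons that read them, and DSN1 (-0.49) in all 4. The mean of a dye pair balances such a gap, but a value from 1 array, such as those of NUF2, SPC34, MCM16 or CSE4, carries it in full.

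**Figure D5:**
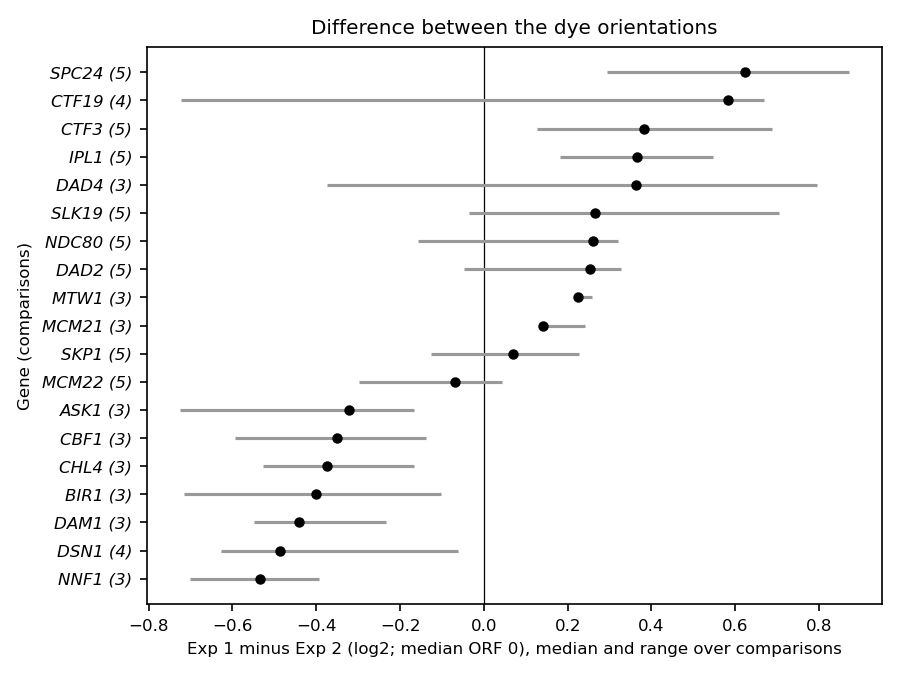
Exp 1 minus Exp 2 in log2 (x axis, median ORF at 0) for the 19 members with at least 3 dye pairs (y axis, number of comparisons in brackets), with the median as a point and the range as a line. SPC24, CTF3, IPL1, MTW1 and MCM21 lie wholly to the right of 0, and NNF1, DSN1, DAM1, BIR1, CHL4, CBF1 and ASK1 wholly to the left.

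Members are shorter than most genes, with a median coding length of 932 bases against 1233 for all ORFs, and DASH genes are shortest at a median of 450. Length and log2 ratio were related across genes, which are not independent, with Spearman coefficients of -0.27 in the deletion, -0.21 for tet over own promoter and -0.24 without over with doxycycline. With that trend removed, the members' median without over with doxycycline was 0.37 in place of 0.48, and DAD4 moved from 0.84 to 0.54. CTF19 overlaps another annotated gene, YPL017C, so its signal may not be its own.

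Other genes of the kinetochore were taken from lists made alongside the members. Of the 6 spindle checkpoint genes, 5 were measured in the deletion and none reached 1.5-fold on both arrays in any comparison with altered HCM1. MAD1 (-0.76 and -0.46) and MAD3 (-0.89 and -0.35) were negative in the deletion, and MAD2 (0.62 and 0.27) was positive. MPS1, the checkpoint kinase gene, stood at 0.39 and 0.47 without over with doxycycline. Of the 10 further kinetochore genes, 7 were measured in the deletion and none reached 1.5-fold on both arrays in those comparisons either. SPC105, the scaffold of the checkpoint, was at -0.75 and -0.40 in the deletion, and SGO1, the shugoshin, at 0.55 and 0.47 without over with doxycycline. In that comparison the median was 0.04 for the 4 measured checkpoint genes and 0.08 for 5 further genes, beside 0.48 for the 23 members. The difference was not tested.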

How the data were processed

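The authors deposited log2 ratios for 12 2-colour arrays of total RNA from yeast; per the labels, Exp 1 is Cy5/Cy3 and Exp 2 Cy3/Cy5, so both are oriented alike. How they were normalized and filtered is not given in the sources used here. Turned back from log2 to ratios, 100% of values in 11 columns lie on a linear grid of 0.001, and 12.8% in the first column of HCM1HA over wild type. Raw intensities and spot quality were not used here, so the precision is limited by the number of arrays.

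Each array was centred on its median and the 2 arrays of a comparison averaged as 1 replicate. Of HCM1HA over wild type the first column was used. All genes were fitted with limma 3.58.1 (lmFit and eBayes, in R 4.3.3), with the residual from the control comparisons around 0. The residual had at most 3 degrees of freedom, or 2 for a control comparison, and fewer for a gene that lacked a control value. In the deletion, DSN1 rested on the 4 h doxycycline control alone. MTW1 rested on HCM1HA over wild type alone, and HCM1 lacked the 4 h control. Their p-values are weaker than the full number would give. The fit takes the controls to hold no true change. That is in doubt: after 10 h of doxycycline 8.86% of tested ORFs passed, and HCM1 stood at 1.02. Shifts in a control widen the residual, so a count of 0 passing does not show that nothing changed. P-values were adjusted by Benjamini-Hochberg. The fit was also run on simulated data in which the controls held no change, so that run could not test the assumption about the controls. Without separate cultures, no p-value here measures the spread between cultures. Those of the main fit set a ratio against the size of the control ratios around 0. The 1.5-fold and 2-fold counts use no test.

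The Exp numbers mark the dye orientation, and Exp 1 minus Exp 2 correlated between all 10 pairs of the 5 comparisons (r from 0.56 to 0.68), so a fit with the number as a replicate block was run. Gene names, chromosomes and coding lengths come from RefSeq R64, which matched 5675 of the ORFs and missed 499. No coordinates are given, as no build is named. Members and lists were chosen with earlier results of these data known. Values on every array are given for members at least 1.5-fold from 0 on both arrays where HCM1 was altered, and for the furthest member of each subcomplex there; other genes were named after their values were seen. Sequences were not used here.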

Additional observations from a re-analysis of the deposited data

Results flagged for a closer look

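DAD2, SKP1 and IPL1, of 8 members with values in both strains, had opposite signs in the tet and the tagged strain. This held on every array with over without 10 h of doxycycline, the same contrast in a pair of strains. The share of all ORFs with such opposite signs is not given here. SKP1 was at 0.36 and 0.61 in the tet strain and at -0.46 and -0.45 in the tagged strain, a difference of 0.94 (limma, Benjamini-Hochberg adjusted p = 0.332). IPL1 was at 0.08 and 0.65 against -0.32 and -0.62, a difference of 0.84 (adjusted p = 0.392). DAD2 was at 0.13 and 0.41 against -0.09 and -0.48, a difference of 0.56 (adjusted p = 0.586). None of these differences passed the limma test. MCM22 differed in sign between times in the tagged strain, at 0.06 and 0.15 after 4 h and at -0.03 and -0.18 after 10 h, a difference of 0.21 that was not tested.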

How the results depend on the processing

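Of 180 values under alternatives set out with the design, 136 stayed within the spread of the arrays or within 1.5 times the count, and 44 moved. Of the moved values, 5 were medians of the members that changed sign, given below. Single genes were followed only if 1.5-fold from 0 on both arrays where HCM1 was altered, and none of these changed sign. Other named genes had opposite signs on the arrays of a pair, such as NDC80 in the deletion (0.28 and -0.09). The number of members passing limma was 0 in each comparison without replicate 1 or without replicate 2, and with values as deposited, robust moderation, ORFs on all 12 arrays, the coding length trend removed or the tagged control left out. With each array a replicate it was 2 in the deletion, 2 for tet over own promoter, 10 without over with doxycycline and 3 after 10 h of doxycycline. With the replicate block as well (same Exp number as the same dye orientation) it was 3, 8 and 15, then 5 after 4 h and 4 after 10 h; the block and the arrays as replicates come together there. With the mirrored columns averaged, which sets that control near 0 and so shrinks the residual, 1 passed without over with doxycycline (SLK19) and 1 after 10 h (SPC24).

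Of the 2 members 1.5-fold lower in the deletion, 1 was left without chromosome IX, 0 at 2-fold and 0 among the 7 members on all 12 arrays. For tet over own promoter the 1 lower and 1 higher member became 0 and 0 at 2-fold and on all 12 arrays, since MTW1 and NNF1 are not on all 12. Without over with doxycycline the 8 higher members became 1 at 2-fold, 2 on all 12 arrays and 0 of 8 measured with the 10 h doxycycline control added, where 1 was lower. Of the higher members only NDC80 and CTF3 were measured with that control, with means of 0.04 and 1.03. The share of all ORFs with it added is not given here. With the length trend removed, 1 member was lower in HCM1HA over wild type, 1 after 4 h and 0 after 10 h, where 2-fold also gave 0; as deposited, 1 was higher after 10 h.

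The members' median in the deletion (-0.11) ranged from -0.150 to 0.0267 leaving out each array, changing sign without Exp 1, and was 0.10 on all 12 arrays. For tet over own promoter (0.09) it ranged from 0.20 to 0.23, was -0.0078 on all 12 arrays and 0.0277 with the length trend removed. Without over with doxycycline (0.48) it ranged from 0.41 to 0.56, was 0.37 with the length trend removed, and was -0.24 on all 12 arrays and -0.17 with the control added, both over few members. For other moves the cause was not tested.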

Other observations

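Ratios give no level, so the MATa label of the cells could not be checked against presence or absence of markers. Of 6 genes used by a cells, 5 were measured in the deletion (from -0.81 to 0.13) and 4 without over with doxycycline (from -0.93 to 0.20). Of 4 genes used by alpha cells, 2 were measured in the deletion (-0.56 and -0.17). Of 5 meiosis genes, 3 were measured in the deletion, from 0.09 to 0.11. Their part in the members' values was not tested.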
